A study of Mus musculus with 55 samples.

Results

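The 144 immunoglobulin genes described here encode the heavy and light chains of antibodies. They were taken from bulk RNA-seq of infarcted mouse left ventricle by gene symbol and by level: heavy variable (Ighv), kappa variable (Igkv), lambda variable (Iglv) and constant region genes with at least 500 raw counts summed over 55 libraries. Of 57260 genes in the series, 362 carry such a name and 145 reached that count. They were 67 of 185 heavy variable genes, 64 of 160 kappa variable genes, 2 of 3 lambda variable genes, 7 of 8 heavy constant genes and 4 of 5 light constant genes. The remaining 1 is Ighmbp2, which shares the first letters of Ighm but encodes a helicase, so it is given apart. The summed counts chose the genes, so their abundance over the whole series is a description. Just inside the limit were Ighv2-5 with 592 counts, Ighv3-8 with 574 and Ighv1-59 with 505, and just outside it Igkv4-80 with 477, Ighv9-1 with 474 and Igkv8-16 with 469. The heavy constant gene Ighe and the light constant gene Iglc4 fell below it.

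All mice were C57BL/6J, and all tissue was left ventricular infarct after permanent coronary ligation. The groups were type 1 diabetic (8 libraries), type 2 diabetic (8) and non-diabetic (8) at day 7, and type 1 diabetic (10), type 2 diabetic (10) and non-diabetic (11) at day 28. The deposited column names carry hi_STZ for the type 1 libraries, lo_STZ_HFFD (day 7) or lo_STZ_plus_HFFD (day 28) for the type 2 libraries and ctrl for the non-diabetic libraries. No dose, age or sex of the mice is stated in the labels. The series' design text speaks of day 7 alone, so day 28 rests on the sample titles. The days were sequenced as separate projects, so the effect of time and that of the project cannot be told apart. Whether replicates are separate animals is not stated, so p-values measure the spread between libraries, which may be in part technical.

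An antibody is built from paired heavy and light chains. Each B cell joins 1 heavy V gene and 1 light V gene to its constant genes, and its daughters inherit the choice, so the V genes of an expanded clone are read in like amounts. Naive B cells make IgM and IgD from Ighm and Ighd, and class switching replaces these by Ighg or Igha. Plasma cells, which secrete antibody, hold far more immunoglobulin mRNA than resting B cells, and Jchain, which they express, links the units of secreted IgM and IgA. In the mouse, B-1 cells, a self-renewing B cell population of the body cavities, are known for a few recurrent pairs that bind phosphatidylcholine. The heavy and light V genes of these pairs are Ighv11-2 with Igkv14-126 and Ighv12-3 with Igkv4-91.

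These 4 V genes are printed because they form the pairs followed below. Shown are the last 300 bases of each coding sequence, from GENCODE M21 on GRCm38, 5′ to 3′ on the coding strand. Capitals mark the last in-frame cysteine codon, the conserved cysteine at the border of the third complementarity-determining region, after which V is joined to D or J.

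Ighv11-2 (chromosome 12): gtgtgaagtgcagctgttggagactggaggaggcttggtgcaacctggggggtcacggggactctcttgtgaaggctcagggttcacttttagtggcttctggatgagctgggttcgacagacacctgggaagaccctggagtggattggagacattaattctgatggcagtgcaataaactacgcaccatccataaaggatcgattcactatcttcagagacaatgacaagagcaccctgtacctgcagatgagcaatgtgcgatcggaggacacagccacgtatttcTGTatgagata
Igkv14-126 (chromosome 6): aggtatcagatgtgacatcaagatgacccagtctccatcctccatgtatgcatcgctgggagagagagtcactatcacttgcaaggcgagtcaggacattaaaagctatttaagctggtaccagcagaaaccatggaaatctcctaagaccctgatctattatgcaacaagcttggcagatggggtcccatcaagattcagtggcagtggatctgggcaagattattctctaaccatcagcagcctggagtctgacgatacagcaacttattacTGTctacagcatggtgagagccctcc
Ighv12-3 (chromosome 12): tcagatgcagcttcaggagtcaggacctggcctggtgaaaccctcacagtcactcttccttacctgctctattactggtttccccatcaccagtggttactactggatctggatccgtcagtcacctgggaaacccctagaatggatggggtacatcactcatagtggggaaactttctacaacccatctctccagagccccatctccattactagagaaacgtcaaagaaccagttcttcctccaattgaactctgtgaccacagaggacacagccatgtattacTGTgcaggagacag
Igkv4-91 (chromosome 6): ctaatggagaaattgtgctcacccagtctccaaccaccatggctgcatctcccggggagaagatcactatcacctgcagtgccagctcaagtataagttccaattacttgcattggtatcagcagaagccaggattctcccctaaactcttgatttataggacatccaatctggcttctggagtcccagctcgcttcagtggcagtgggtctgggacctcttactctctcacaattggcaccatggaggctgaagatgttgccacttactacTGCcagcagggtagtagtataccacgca

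V genes resemble each other, so a count can hold reads of a close relative. Over these 300 bases Ighv11-2 is 98.7% identical to Ighv11-1, which had 11 counts in the whole series. Igkv14-126 is 91.0% identical to its nearest relative Igkv14-111, Ighv12-3 is 79.0% identical to Ighv3-1 and Igkv4-91 is 87.3% identical to Igkv4-53. Of 23 V genes compared in this way, 11 have a relative with 95% identity or more, and their counts are uncertain to that extent.

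The summed level of the 144 genes varied more within a group than between groups. In CPM, the count of a gene scaled to the library's total, type 1 diabetic infarcts of day 7 spanned 29.5 to 6579 with a median of 37.1, type 2 diabetic infarcts 56.2 to 452 with a median of 60.8, and non-diabetic infarcts 39.0 to 779 with a median of 73.5. At day 28 the range was 73.0 to 1783 in type 1 diabetic infarcts (median 184), 74.9 to 16300 in type 2 diabetic infarcts (median 662) and 61.2 to 3421 in non-diabetic infarcts (median 591). The groups of each day overlapped. At day 7, 17 of 24 libraries were under 100 CPM and 1 was over 1000 CPM, whereas at day 28 this was so of 8 and 9 of 31 libraries. In bulk tissue, fewer B lineage cells and less immunoglobulin RNA per cell cannot be told apart.

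**Figure D1:**
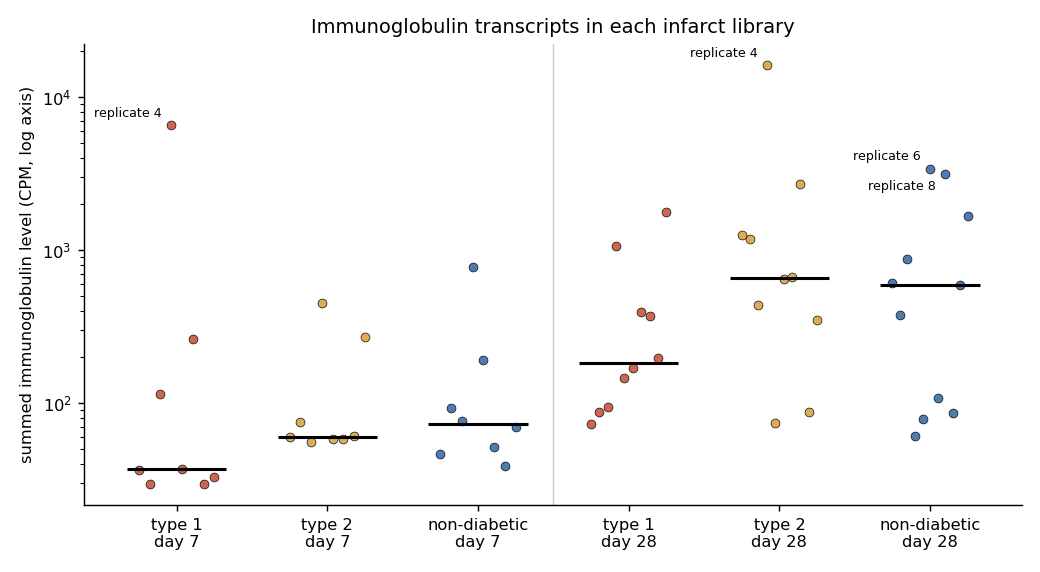
Summed level of the 144 immunoglobulin genes in each library (points, CPM on a log axis) by group, with the group median as a bar. Replicate 4 of the type 1 group at day 7 (6579 CPM) and replicate 4 of the type 2 group at day 28 (16300 CPM) lie far above their groups, and the non-diabetic libraries of day 28 range from 61.2 to 3421 CPM.

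A single library of each diabetic state stood apart from the rest. Day 7 type 1 replicate 4 gave 0.854% of its counts to immunoglobulin genes, and the next type 1 library of that day reached 265 CPM against its 6579. This library also had the lowest summed cardiomyocyte list of the series (1889 CPM, against up to 17110 in its group), 664 CPM of the adipocyte list, where its group's median was 118, and 113 CPM of the lymph node list, where the median was 10.7. Day 28 type 2 replicate 4 gave 1.90% of its counts to immunoglobulin genes and held 1120 CPM of the B cell list, 131 CPM of the T cell list and 458 CPM of the lymph node list, each the highest of its day. Its cardiomyocyte list, at 12020 CPM, was the lowest of day 28. Of the 144 genes, which were chosen by counts that include both libraries, 87 had their highest level in this library and 10 in day 7 type 1 replicate 4. Results named as resting on these libraries are given with and without them. A fit of a single day without them leaves out only the library of that day. The part of other tissue in either sample was not tested.

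Most V genes owed their counts to few libraries. Over the 133 variable genes, the library with the highest level held a median of 40.5% of a gene's CPM summed over all 55 libraries, and the range was 14.3% to 99.1%. In 40 of the 133 genes a single library held over 50%, and in 109 over 25%. A gene could pass the count limit through a single library, so these shares follow in part from how the genes were chosen. Ighv5-12, among the 4 most counted heavy V genes, stood at 250 CPM in day 28 type 2 replicate 4 and at no more than 1.74 CPM in any other library. Ighv1-22 and Igkv16-104, the leading heavy and light V genes of that library, stood there at 259 and 388 CPM and at no more than 14.8 and 9.03 CPM elsewhere. Ighv1-66 stood at 142 CPM in day 7 type 1 replicate 4 and at no more than 4.89 CPM elsewhere.

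The shares of the leading heavy and light V genes of a library lay close in some libraries and not in others. For the 28 libraries with at least 500 heavy V counts, the share of the leading heavy V gene among heavy V counts was compared with that of the leading light V gene among light V counts. The 28 libraries had 17 different leading heavy V genes and 16 different leading light V genes. In day 7 type 1 replicate 4, Ighv1-66 held 39.2% of heavy V counts (95% Wilson interval 38.5 to 39.9) and Igkv4-57 held 38.8% of light V counts (38.4 to 39.3). In day 28 type 2 replicate 4, Ighv1-22 held 17.4% (17.2 to 17.6) and Igkv16-104 14.8% (14.7 to 15.0). In non-diabetic libraries of day 28, Ighv1-64 held 34.1% and Igkv9-120 38.9% in replicate 6, and Ighv1-69 held 34.4% and Igkv8-24 39.6% in replicate 2. The 95% intervals of the 2 shares overlapped in 11 of the 28 libraries, and the shares lay a median of 3.12 and up to 13.7 percentage points apart. The widest gap was in day 28 non-diabetic replicate 3, where Ighv7-3 held 27.8% and Igkv8-24 14.2%. The intervals cover counting error only. Most low counts are even numbers, as when both mates of a read pair are counted, so the intervals are too narrow.

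The leading pair of day 28 type 2 replicate 10 used a lambda chain. Ighv3-1 held 36.4% of its heavy V counts (33.9 to 39.0) and Iglv1 45.8% of its light V counts (44.1 to 47.6). In this library Igkc made up 58.9% of light constant counts per kb of exon, against 86.4% to 98.6% in the non-diabetic libraries of day 28. Its effective number of V genes, which is the count of equally used genes that would give the same evenness, was 5.93 for heavy and 5.76 for light chains. Both are the lowest values among the day 28 libraries, and non-diabetic libraries of that day spanned 11.2 to 28.99 for heavy chains.

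**Figure D2:**
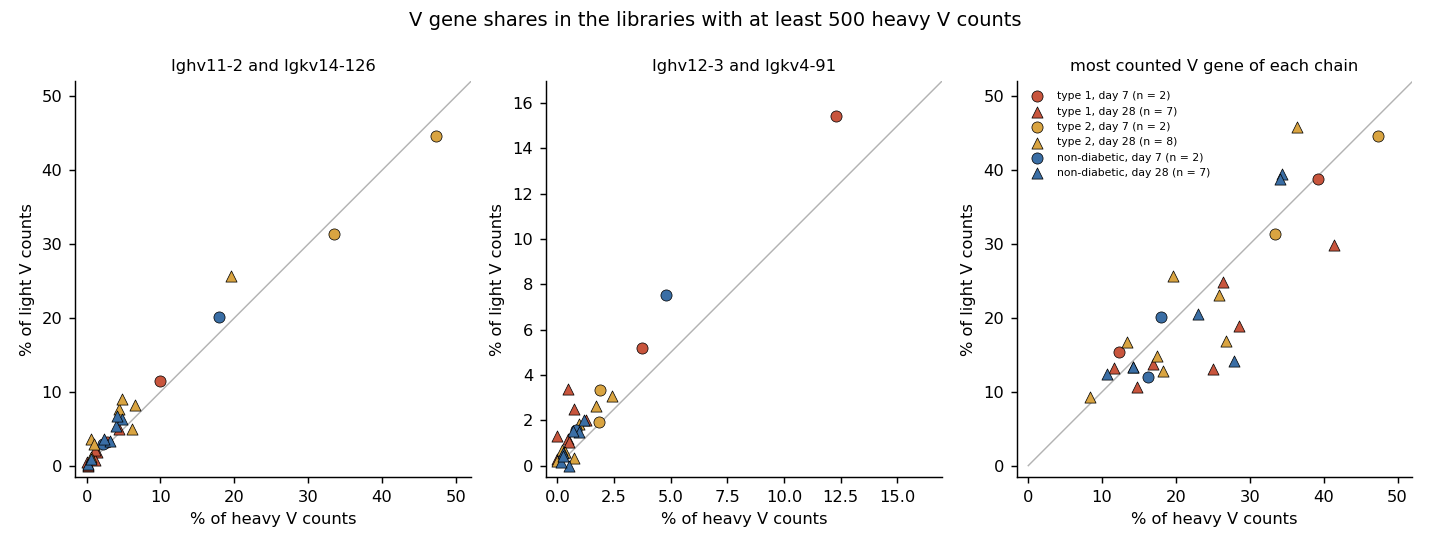
Share of heavy V counts (x axis, %) against share of light V counts (y axis, %) in the 28 libraries with at least 500 heavy V counts, for the B-1 pairs (left and middle) and for the most counted V gene of each chain (right). Each point is a library, and the grey line marks equal shares. The day 7 type 2 libraries reach 47.3% for Ighv11-2 and 44.6% for Igkv14-126, near the line.

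The B-1 pair Ighv11-2 with Igkv14-126, printed above, led several libraries of different groups. In day 7 type 2 replicate 8, Ighv11-2 held 47.3% of heavy V counts (44.4 to 50.2) and Igkv14-126 44.6% of light V counts (42.5 to 46.7). In day 7 type 2 replicate 4 the shares were 33.4% (30.9 to 36.0) and 31.3% (29.7 to 33.1), and in replicate 7, with 155 heavy V counts, 14.8% (10.1 to 21.3) and 14.3% (10.5 to 19.2). The pair also led day 28 type 2 replicate 8, with 19.6% and 25.7%, and day 7 non-diabetic replicate 4, with 17.9% (15.1 to 21.1) and 20.2% (17.9 to 22.7). In day 7 non-diabetic replicate 8, with 143 heavy V counts, Ighv11-2 led with 16.78% (11.55 to 23.76). Igkv14-126 held 13.29% of its light V counts (9.913 to 17.59), behind Igkv4-53 with 17.28%. Among libraries with at least 500 heavy V counts, Ighv11-2 reached 10% in 0 of 2 type 1, 2 of 2 type 2 and 1 of 2 non-diabetic libraries at day 7. At day 28 it did so in 0 of 7 type 1, 1 of 8 type 2 and 0 of 7 non-diabetic libraries. Outside these libraries, day 28 type 2 replicate 9 had 14.3% for Igkv14-126 (11.9 to 17.0) and 0 of 269 heavy V counts for Ighv11-2 (0 to 1.41%). A difference between groups in these shares was not tested.

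The other B-1 pair led day 7 type 1 replicate 6. There Ighv12-3 held 12.3% of heavy V counts (10.3 to 14.6) and Igkv4-91 15.4% of light V counts (13.8 to 17.2), beside 9.93% for Ighv11-2 and 11.4% for Igkv14-126. In day 7 non-diabetic replicate 4 the shares of Ighv12-3 and Igkv4-91 were 4.80% and 7.52%, and in day 7 type 1 replicate 4 they were 3.74% and 5.20%. In day 28 type 2 replicate 4, the library with the highest immunoglobulin level, they were 0.296% and 0.580%.

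In absolute level, the B-1 genes were high in few libraries of day 7. Igkv14-126 stood at 24.9 CPM in type 1 replicate 4 and 4.02 CPM in replicate 6, with the other type 1 libraries at 0 to 0.723 CPM. Type 2 replicates 4 and 8 stood at 21.3 and 20.2 CPM with the others at 0.0786 to 0.671 CPM, and non-diabetic replicate 4 at 18.7 CPM with the others at 0 to 0.887 CPM. At day 28 Igkv14-126 spanned 0 to 12.3 CPM in type 1, 0.151 to 236 CPM in type 2 and 0.101 to 17.4 CPM in non-diabetic infarcts. Ighv11-2 followed the same libraries, at 0 to 9.93 CPM in type 1, 0 to 11.54 CPM in type 2 and 0 to 9.50 CPM in non-diabetic infarcts of day 7. The groups overlapped at both days.

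Igkv14-126 was among the genes called lower in type 1 than in type 2 diabetic infarcts at day 28, by a log2 fold change of −4.52 (SE 1.28, edgeR adjusted p = 0.0456). Without the 2 libraries that stand apart the change was −3.34 (adjusted p = 0.149).

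Among the constant genes, Ighm, which encodes the IgM heavy chain, dominated. Per kb of exon it made up 67.1% to 91.2% of heavy constant counts in type 1, 80.9% to 94.5% in type 2 and 67.2% to 87.2% in non-diabetic infarcts at day 7. At day 28 it made up 34.0% to 91.6% (median 75.1%) in type 1, 79.1% to 96.9% (median 90.9%) in type 2 and 68.6% to 96.0% (median 92.7%) in non-diabetic infarcts. These shares are a description, since they are summed over genes chosen by their counts.

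Switched isotypes took their highest share in type 1 diabetic infarcts of day 28. The Ighg genes, which encode the IgG heavy chains, made up 40.7% and 34.0% of heavy constant counts per kb in type 1 replicates 5 and 6, and Igha, of the IgA heavy chain, 20.3% and 10.5%. The Ighg share had a median of 14.2% (range 5.40% to 40.7%) in type 1, 5.98% (1.69% to 14.0%) in type 2 and 3.28% (2.21% to 19.9%) in non-diabetic infarcts of day 28. The median Igha share was 7.43% in type 1, 1.35% in type 2 and 2.07% in non-diabetic infarcts. Replicates 5 and 6 had summed immunoglobulin levels of 146 and 170 CPM, and Ighm levels of 25.4 and 44.1 CPM.

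**Figure D3:**
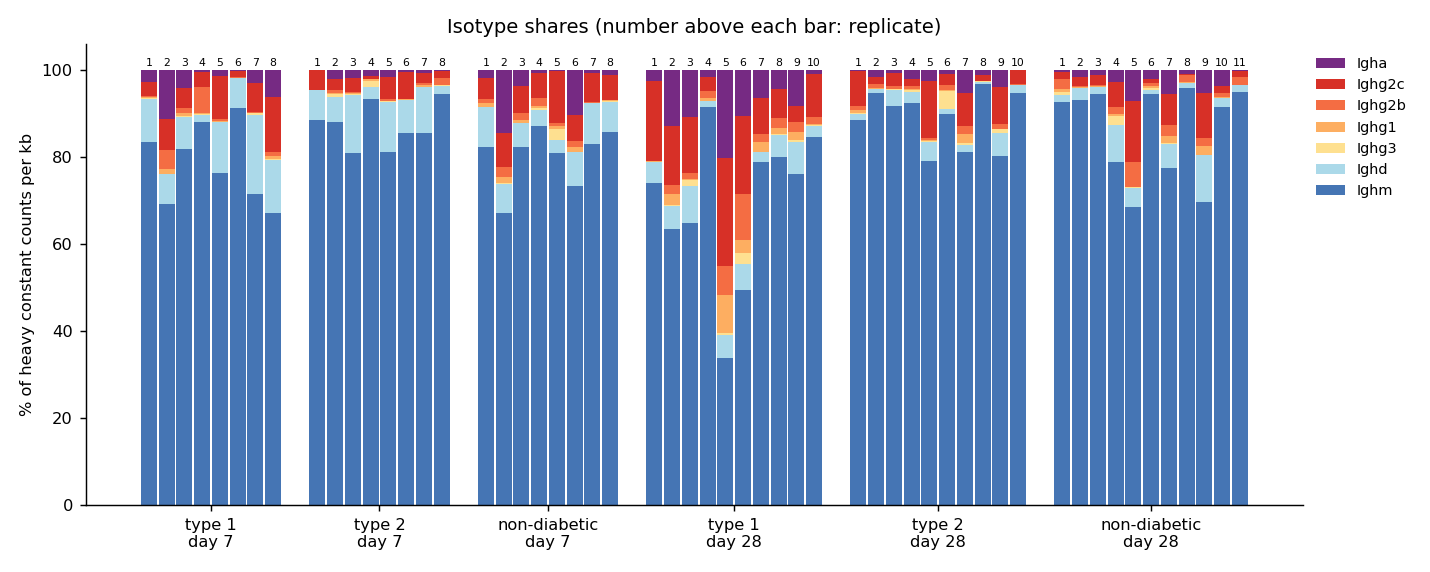
Share of each heavy constant gene among heavy constant counts per kb of exon (stacked bars, %), 1 bar per library. Ighm takes most of every bar except type 1 replicates 5 and 6 of day 28, where it holds 34.0% and 49.5%.

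Igha was not called in type 1 against non-diabetic infarcts of day 28. The type 1 libraries stood at 2.07, 9.78, 8.97, 12.3, 21.4, 13.3, 18.8, 12.4, 13.3 and 12.01 CPM. The type 2 libraries spanned 0.0376 to 234 CPM with a median of 3.81 CPM, and the non-diabetic libraries 1.56 to 51.0 CPM with a median of 4.63 CPM. The groups overlapped, and the fitted log2 fold change of type 1 over non-diabetic was 0.25 (SE 0.79, edgeR adjusted p = 0.894).

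Ighg2c, the IgG2c heavy chain gene that C57BL/6 mice carry in place of Ighg2a, was called higher in type 2 diabetic than in non-diabetic infarcts at day 28. Its levels were 39.1, 6.54, 5.25, 102, 4.47, 5.85, 18.1, 14.1, 3.31 and 4.20 CPM in type 2 libraries, and spanned 1.66 to 10.8 CPM with a median of 4.00 CPM in non-diabetic libraries. The groups overlapped, with replicates 4 and 1 highest in type 2. The log2 fold change was 2.05 (SE 0.569, edgeR adjusted p = 0.0179), and 1.22 (adjusted p = 0.124) without the 2 libraries that stand apart. In type 1 diabetic infarcts of day 28 Ighg2c stood at 2.86 to 66.7 CPM with a median of 10.4 CPM. That was a log2 fold change over non-diabetic of 1.56 (SE 0.563, edgeR adjusted p = 0.109). It became a call without those libraries (1.56, adjusted p = 0.0464), in a fit that left out no library of these 2 groups.

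At day 7 Ighg2c stood at 0.682 to 2.19 CPM in type 1 libraries other than replicate 4 (88.2 CPM), at 0.689 to 1.96 CPM in type 2 libraries, and at 1.33, 3.12, 2.45, 18.7, 9.13, 1.52, 1.601 and 1.93 CPM in non-diabetic libraries. Without type 1 replicate 4, which alone of the 2 libraries that stand apart is of day 7, edgeR called Ighg2c lower in both diabetic groups. Against non-diabetic infarcts the log2 fold changes were −1.68 (edgeR adjusted p = 0.0152) in type 1 and −1.86 (adjusted p = 0.0158) in type 2. With that library they were 1.45 (adjusted p = 0.245) and −1.84 (adjusted p = 0.234). The type 2 and non-diabetic libraries were the same in both fits, and the groups of a day share an estimate of the spread. Non-diabetic replicates 4 and 5 were the high libraries in these comparisons. The type 2 effect on Ighg2c differed between the days by 3.87 (SE 1.08, edgeR adjusted p = 0.0486), and by 3.01 (adjusted p = 0.022) without the 2 libraries that stand apart. The type 1 effect differed by 0.16 (adjusted p = 0.951) with and 3.20 (adjusted p = 0.00209) without them.

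**Figure D4:**
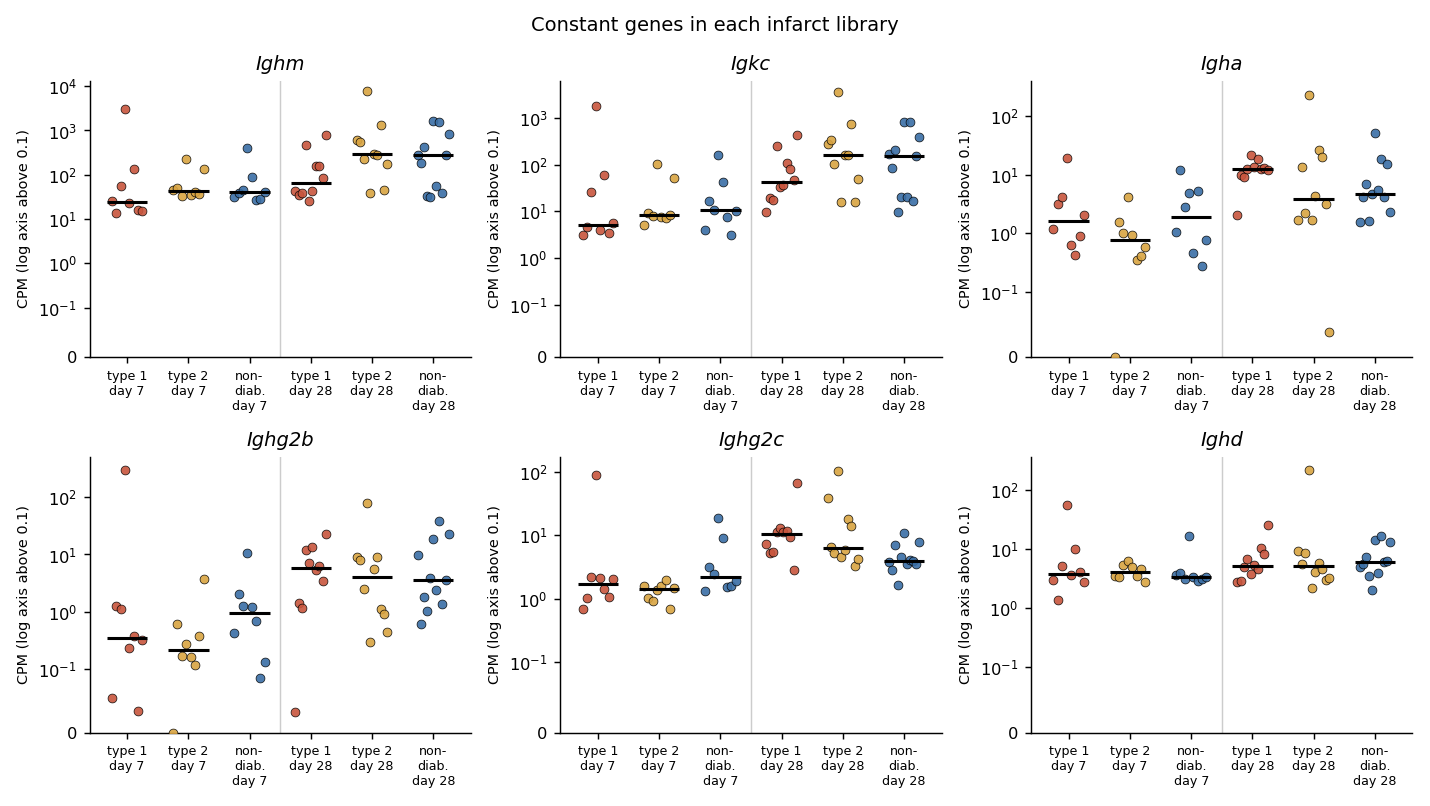
Level of 6 constant genes in each library (points, CPM on an axis that is linear below 0.1 and logarithmic above), with the group median as a bar. The points of the groups overlap in each gene, and Igha of the type 1 group at day 28 lies between 2.07 and 21.4 CPM.

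Ighd, of the IgD heavy chain, had its highest levels in the 2 libraries that stand apart. It stood at 1.40 to 10.2 CPM in type 1 libraries of day 7 other than replicate 4 (56.3 CPM), at 2.81 to 6.41 CPM in type 2 and at 2.89 to 17.0 CPM in non-diabetic libraries. At day 28 it spanned 2.80 to 25.5 CPM in type 1, 2.19 to 9.38 CPM in type 2 libraries other than replicate 4 (218 CPM) and 2.04 to 16.6 CPM in non-diabetic libraries. Ighd passed the test in none of the 6 comparisons within a day.

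The kappa constant gene Igkc was below Ighm in many libraries of day 7. Per kb of exon, Ighm exceeded Igkc in 13 of 24 libraries of day 7 and in 1 of 31 of day 28, and all 14 had a summed level under 100 CPM. Day 7 type 1 replicate 1 had 25.5 CPM of Ighm against 3.11 CPM of Igkc and detected 25 of the 133 V genes. In the libraries with the highest immunoglobulin level the ratio of Ighm to Igkc per kb was 0.493 (day 7 type 1 replicate 4) and 0.606 (day 28 type 2 replicate 4). It was 0.567 and 0.546 in day 28 non-diabetic replicates 6 and 8. The lowest ratio, 0.218, was that of day 28 type 1 replicate 5.

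Neither Ighm nor Igkc passed the edgeR test in any diabetic comparison. At day 7 Ighm stood at 25.5, 14.1, 56.4, 3129, 23.6, 134, 15.9 and 15.5 CPM in type 1, at 44.2, 50.4, 32.7, 225, 35.2, 39.9, 37.5 and 139 CPM in type 2, and at 32.0, 38.8, 45.96, 401, 89.1, 26.4, 27.7 and 41.7 CPM in non-diabetic infarcts. Each group held a majority of libraries under 100 CPM and 1 or 2 higher ones. The log2 fold change over non-diabetic was 2.35 (SE 1.04, edgeR adjusted p = 0.103) for type 1 and −0.23 (SE 0.989, adjusted p = 0.922) for type 2. For type 1 it was −1.10 without the 2 libraries that stand apart (adjusted p = 0.228), and DESeq2 with them gave −0.08 (adjusted p = 0.919). At day 28 Ighm spanned 25.4 to 810 CPM (median 64.8) in type 1, 38.1 to 7689 CPM (median 289) in type 2 and 31.6 to 1646 CPM (median 276) in non-diabetic infarcts. The log2 fold changes were −1.38 (SE 0.869, adjusted p = 0.393) and 1.18 (SE 0.852, adjusted p = 0.407), and without the 2 libraries −1.38 (adjusted p = 0.283) and −0.30 (adjusted p = 0.867). The type 1 effect differed between the days by −3.67 for Ighm (edgeR adjusted p = 0.0712) and −4.21 for Igkc (adjusted p = 0.0631). DESeq2 called both differences, at −3.66 (adjusted p = 0.024) and −4.17 (adjusted p = 0.0176). Without the 2 libraries that stand apart edgeR gave −0.29 (adjusted p = 0.902) and −0.28 (adjusted p = 0.917). The smallest difference that the test could call at this spread between libraries was not computed, so a change that was not called may still exist.

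The comparison of type 1 diabetic with non-diabetic infarcts at day 7 called 2 immunoglobulin genes, both higher, among the 23 that passed the low-count filter. Of all genes tested, 22.5% were called in that comparison, 11.1% higher and 11.4% lower. Ighg2b, of the IgG2b heavy chain, stood at 0.0545, 1.24, 1.11, 300, 0.230, 0.385, 0.0339 and 0.322 CPM in type 1 and at 0.418, 2.03, 1.27, 10.7, 1.22, 0.680, 0.0866 and 0.133 CPM in non-diabetic libraries, and its log2 fold change was 4.65 (SE 1.51, edgeR adjusted p = 0.0283). Igkv12-89 stood at 89.2 CPM in type 1 replicate 4, at 0 to 0.513 CPM in the other type 1 libraries and at 0 to 2.72 CPM in non-diabetic libraries (log2 fold change 5.03, SE 1.69, adjusted p = 0.0332). Both calls rest on replicate 4: without it the log2 fold changes were −1.96 (adjusted p = 0.144) and −1.45 (adjusted p = 0.460).

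Type 2 diabetic against non-diabetic infarcts at day 7 gave 0 calls among the 23 genes with edgeR, 0 at an unadjusted p under 0.05, 1 with DESeq2 and 0 with limma-voom. The share called among all genes was 7.35%, with 3.85% higher and 3.5% lower. Without the 2 libraries that stand apart, of which neither is in these groups at day 7, 1 gene was called, Ighg2c, and 8.87% of all genes. The same fit called 1 gene, Ighg2c, in type 1 against non-diabetic infarcts, and 23.3% of all genes. Type 1 against type 2 gave 1, Ighg2b (5.87, SE 1.58, adjusted p = 0.0447), where 2.71% of all genes were called, 1.51% higher and 1.19% lower. Without type 1 replicate 4 its log2 fold change was −0.49 (adjusted p = 0.827). That fit is also the day 7 fit without the 2 libraries that stand apart. In it 0 of the 23 genes were called by edgeR, where 3.18% of all genes were, and 2 had an unadjusted p under 0.05.

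At day 28, 111 immunoglobulin genes passed the filter, and type 1 against non-diabetic infarcts called 1 higher and 3 lower, 3.60% of them against 4.02% of all genes, of which 2.6% were higher and 1.41% lower. The median log2 fold change of the 111 was −1.31, against 0 over all genes. Igkv9-120 stood at 0 to 1.02 CPM in type 1 libraries and at 0 to 2.03 CPM in non-diabetic libraries other than replicate 6, where it stood at 195 CPM. Its log2 fold change was −5.96 (SE 1.48, edgeR adjusted p = 0.0184), and −0.78 without that library. Ighv4-1 was lower in type 1 (−5.03, SE 1.30, adjusted p = 0.0233), with 0 to 0.508 CPM there and 5.75 and 15.1 CPM in non-diabetic replicates 8 and 11. Igkv8-21 was higher (4.08, SE 1.20, adjusted p = 0.0487), with 33.5 CPM in type 1 replicate 4, 0 to 2.20 CPM in the other type 1 libraries and 0 to 0.908 CPM in non-diabetic libraries. Igkv4-86 had a log2 fold change of −4.47 (SE 1.30, adjusted p = 0.0469). The calls of Igkv4-86 and Igkv8-21 were lost in 14 and 16 of 21 fits that left out a library, and Igkv8-21 had 1.04 without type 1 replicate 4. Ighv4-1 had −3.68 (adjusted p = 0.0811) without non-diabetic replicate 11. In each of the 4 genes the groups overlapped, and without the 2 libraries that stand apart 10 genes were called, the 4 among them, where 6.12% of all genes were called.

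Type 2 against non-diabetic infarcts at day 28 called 7 of the 111 genes, all higher, or 6.31% against 10.7% of all genes, of which 7.21% were higher and 3.5% lower. The counts that chose the genes include type 2 replicate 4, so the common direction is a description. The largest log2 fold changes among V genes were 4.68 for Igkv16-104, 4.43 for Igkv3-5 and 3.58 for Ighv5-17. Igkv16-104 stood at 388 CPM in type 2 replicate 4 and at 0 to 5.60 CPM in the other type 2 libraries, against 0 to 6.85 CPM in non-diabetic libraries. Its log2 fold change without replicate 4 was −0.13 (adjusted p = 0.958).

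Igkv3-5 was the 1 gene of the 7 still called without the libraries that stand apart, in a fit that called 2 immunoglobulin genes and 8.36% of all genes. Type 2 libraries stood at 0.740, 7.23, 0.0790, 17.1, 0, 0.0889, 1.02, 14.5, 0.0284 and 0 CPM, and non-diabetic libraries at 0 to 0.530 CPM with a median of 0.0902 CPM. Type 2 replicates 1, 2, 4, 7 and 8 lay above every non-diabetic library and the other 5 within their range. The counts that chose Igkv3-5 include these type 2 libraries, so its higher level there may follow in part from that choice. The log2 fold change was 4.43 (SE 0.985, edgeR adjusted p = 0.00332), and 3.80 (adjusted p = 0.00931) without those libraries. With limma-voom it was 1.33 (adjusted p = 0.441) and with the replicate block 3.10 (adjusted p = 0.138), and neither fit called any immunoglobulin gene in this comparison. Igkv3-5 is 98.0% identical to Igkv3-10 over the last 300 coding bases, so reads of the 2 genes may be mixed.

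Type 1 against type 2 at day 28 called 16 of the 111 genes, all lower in type 1, or 14.4% against 3.21% of all genes, of which 1.19% were higher and 2.03% lower. The median log2 fold change of the 111 was −2.35, against −0.01 over all genes. The genes were chosen by counts that include type 2 replicate 4, which favours genes that are high there. The share called and the common direction are therefore a description. The 3 largest among V genes were Igkv16-104 (−6.91, SE 1.53, edgeR adjusted p = 0.00796), Ighv1-22 (−6.58, SE 1.53, adjusted p = 0.0124) and Igkv4-58 (−6.55, SE 1.54, adjusted p = 0.0137). Iglc2, a lambda constant gene, was the 1 constant gene among the 16 (−3.34, SE 0.903, adjusted p = 0.0355). Without the 2 libraries that stand apart 2 genes were called, Igkv3-5 (−4.76, adjusted p = 0.00827) and Igkv4-58 (−6.66, adjusted p = 0.0126), and the median was −1.07. Igkv4-58 stood at 0 in 8 of 10 type 1 libraries and at no more than 0.576 CPM in the others, against 0 to 3.94 CPM in type 2 libraries other than replicate 8, where it stood at 47.3 CPM. The counts that chose Igkv4-58 include replicate 8, and its change without that library is not given here. The share of genes called was 1.80% of the immunoglobulin genes in that fit, against 2.25% of all genes.

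Many immunoglobulin genes were higher at day 28 than at day 7 in non-diabetic infarcts, by edgeR. Of 132 tested, 75 were called higher and 0 lower, or 56.8%, where 65.1% of all genes were called, 31.4% higher and 33.7% lower. The median log2 fold change was 3.23, against −0.03 over all genes. The genes were chosen by counts summed over both days, and day 28 had more libraries with higher totals. That choice favours genes that are high at day 28, so the common direction of the calls is a description. They comprised 31 of 60 heavy V genes, 38 of 59 kappa V genes, both lambda V genes, and the constant genes Ighm, Igkc, Iglc2 and Iglc3.

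Igkc in non-diabetic infarcts stood at 171, 85.5, 205, 9.49, 20.1, 819, 19.9, 810, 16.3, 155 and 391 CPM at day 28, and at 4.00, 16.9, 10.9, 159, 42.3, 7.59, 3.16 and 10.1 CPM at day 7. The days overlapped, with replicates 6, 8 and 11 high at day 28 and replicate 4 high at day 7. The log2 fold change was 2.99 (SE 1.17, edgeR adjusted p = 0.0221). It was 2.48 for Ighm (SE 1.03, adjusted p = 0.031), 3.03 for Iglc2 (SE 0.975, adjusted p = 0.00576) and 2.47 for Iglc3 (SE 0.997, adjusted p = 0.0269). The switched genes had log2 fold changes of 2.50 for Ighg2b (adjusted p = 0.0741), 1.66 for Igha (adjusted p = 0.0914), 1.16 for Ighg1, 1.37 for Ighg3 and 0.06 for Ighg2c, none of them called. The largest changes among V genes were 7.44 for Igkv9-120, 6.54 for Ighv5-4 and 6.04 for Ighv7-1.

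The change with time rested in part on the 2 highest non-diabetic libraries of day 28. Without replicates 6 and 8, an alternative chosen after the data were seen, 33 of 123 genes were called higher and 0 lower, with a median of 2.04, where 64.3% of all genes were called and 30.9% were higher. Ighm then had a log2 fold change of 1.45 (adjusted p = 0.198), Igkc of 1.95 (adjusted p = 0.125), Igkv9-120 of 1.87 (adjusted p = 0.12) and Iglc3 of 0.86 (adjusted p = 0.426), while Iglc2 (2.38, adjusted p = 0.0285), Ighv5-4 (4.06, adjusted p = 0.0455) and Ighv7-1 (4.81, adjusted p = 0.00665) were still called. Leaving out any 1 non-diabetic library gave 54 to 93 calls. Without the 2 diabetic libraries that stand apart there were 89, 73 of them among the 75, where 66.3% of all genes were called.

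The type 1 effect differed between days in 22 of 132 genes, all lower at day 28, or 16.7% against 12.5% of all genes, of which 6.98% were higher and 5.5% lower. The counts that chose the genes include day 7 type 1 replicate 4, so this share and direction are a description. Igkv4-57 (−11.98) and Ighv1-75 (−9.70) had the largest of these differences beside Ighv1-66, whose non-diabetic libraries of day 7 were all at 0, so that its fitted value is not given as a fold. Day 7 type 1 replicate 4 held 302 CPM of Igkv4-57 and 43.4 CPM of Ighv1-75. The other type 1 libraries of day 7 were at or under 0.556 and 0.0855 CPM. Igkv4-57 without the 2 libraries had −3.15 (adjusted p = 0.242) and Ighv1-75 −2.22 (adjusted p = 0.501), and DESeq2 with them gave −0.68 and 0.54. Without the libraries that stand apart, 3 genes were called, 2 of them among the 22, Ighv5-4 and Ighv1-5, where 14.7% of all genes were called. The type 2 effect differed in 1 gene, Ighg2c, or 0.758% against 1.51% of all genes, of which 1.08% were higher and 0.426% lower. Without those libraries Ighg2c was again the 1 call, where 1.59% of all genes were called.

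Jchain and Cd79a, genes of the B cell lineage, were high in the libraries where Ighm was high. Over the 31 libraries of day 28, log2 CPM of Ighm and Jchain had Pearson's r = 0.97 (permutation p = 1e-05) and Spearman's rho = 0.95 (permutation p = 1e-05), and r was 0.98 without the 2 libraries farthest from the median of Jchain. At day 7, with 24 libraries, r was 0.91 and rho 0.83 (permutation p = 1e-05 for each), and r was 0.85 without the 2 farthest. Within the 6 groups r ranged from 0.86 to 0.99. In all, 6 relations were computed with 100000 permutations each, for which 1e-05 is the smallest p, and the adjusted values for Jchain were 1.2e-05 for r and 1.5e-05 for rho.

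Cd79a, the signalling partner of the B cell receptor, had r = 0.88 with Ighm at day 28 and 0.92 at day 7 (permutation p = 1e-05, adjusted p = 1.2e-05 for each), with rho of 0.89 (permutation p = 1e-05, adjusted p = 1.5e-05) and 0.78 (permutation p = 5e-05, adjusted p = 6e-05). Without the 2 farthest libraries r was 0.87 and 0.82, and within groups it ranged from 0.43 to 0.97. Adipoq, the adipocyte hormone adiponectin, had r = 0.88 and rho = 0.80 with Ighm at day 7 (permutation p = 1e-05 for each, adjusted p = 1.2e-05 and 1.5e-05), and r = 0.78 without the 2 farthest libraries. At day 28 it had r = 0.51 (permutation p = 0.0035, adjusted p = 0.0035) and rho = 0.56 (permutation p = 0.0014, adjusted p = 0.0014), and r = 0.48 without the 2 farthest. Adipoq was listed at 0 in 5 of 8 type 1, 5 of 8 type 2 and 3 of 8 non-diabetic libraries of day 7. The part of fat tissue in the samples was not tested.

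**Figure D5:**
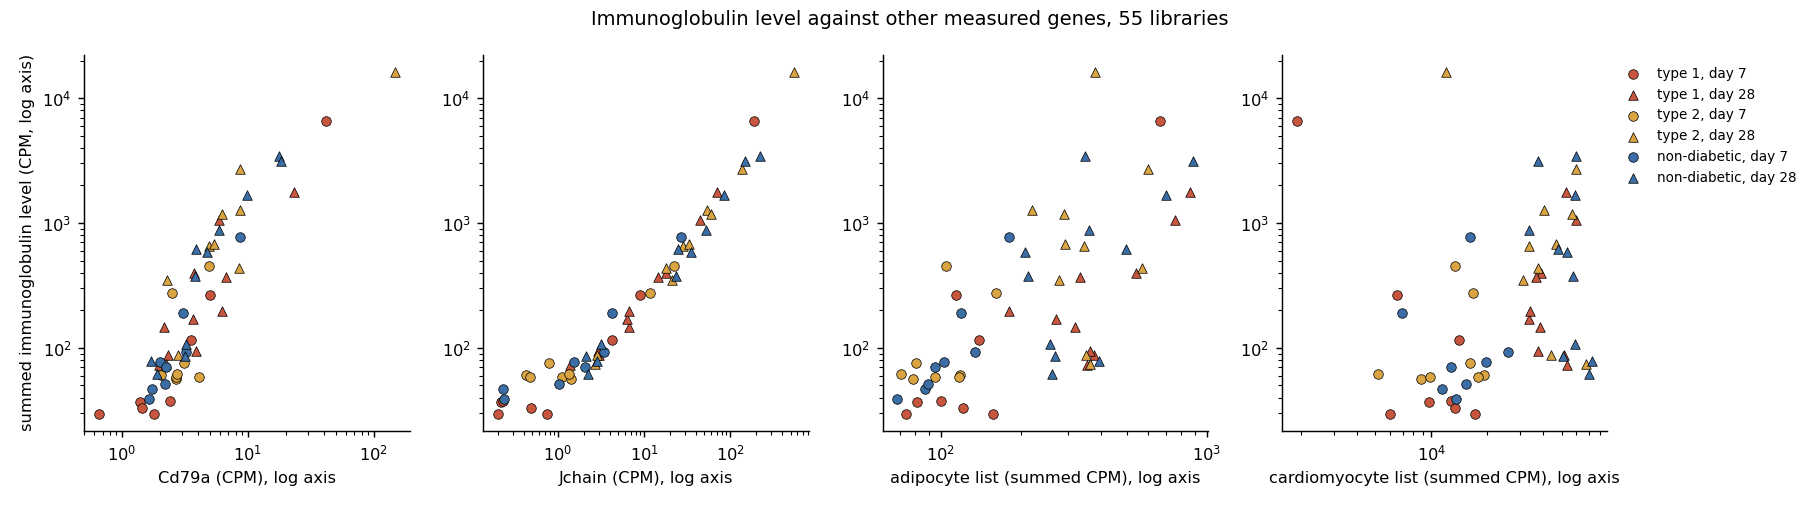
Summed immunoglobulin level (y axis, CPM, log) against Cd79a, Jchain, the summed adipocyte list and the summed cardiomyocyte list (x axes, CPM, log), 1 point per library (circles day 7, triangles day 28). Libraries with more immunoglobulin had more Jchain, which spanned 0.203 to 547 CPM.

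Jchain itself rose with time in non-diabetic infarcts, standing at 2.10 to 219 CPM at day 28 and at 0.232 to 26.8 CPM at day 7 (log2 fold change 3.74, SE 1.24, edgeR adjusted p = 0.00745, and 2.63 with adjusted p = 0.0501 without replicates 6 and 8). Mzb1, a chaperone of antibody secreting and marginal zone B cells, rose likewise (3.31, SE 0.879, adjusted p = 0.000909). Of the plasma cell and secretion list, 2 of 11 genes rose and 3 fell, these being Fkbp11, Sdc1 and Txndc5, which other cells of the infarct also express. Of the 16 genes of the B cell list, Ms4a1, Blk and Bank1 rose and Cd72 fell, and Cd79a had 1.19 (adjusted p = 0.136). Of the lymph node list, Ccl21a, Ccl19 and Chst4 rose among 5 tested. All 8 adipocyte and all 9 cardiomyocyte genes were higher at day 28 in the same comparison, in which 31.4% of all genes were called higher and 33.7% lower. The part of fat or muscle tissue in the change of the immunoglobulin genes was not tested.

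Few genes of the B cell list were called between diabetic states. In type 1 against non-diabetic infarcts 0 of its 16 genes were called at either day, where 22.5% of all genes were called at day 7 and 4.02% at day 28. For type 2 against non-diabetic infarcts these shares of all genes were 7.35% and 10.7%. In type 2 against non-diabetic infarcts Cd72, which macrophages also express, rose at day 7 (0.97, SE 0.276, edgeR adjusted p = 0.0333) and at day 28 (0.89, SE 0.212, adjusted p = 0.00596). The defining gene Cd79a had adjusted p of 0.132 or more in all 6 comparisons within a day. At day 28 Prdm1, a transcription factor of plasma cells that is also found in other cells, fell in type 1 (−0.91, SE 0.189, adjusted p = 0.00523) and in type 2 (−0.60, SE 0.188, adjusted p = 0.0376). Of the B cell precursor list, Rag2 and Vpreb2 were listed at 0 in every library of day 7, and Vpreb3 reached 1.84 CPM in type 1 libraries of day 7 and 4.62 CPM in type 2 libraries of day 28.

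Several genes for receptors that bind antibody were higher in both diabetic groups at day 7 and in type 2 at day 28. At day 7, 5 of 7 tested genes of the Fc and immunoglobulin receptor list were higher in type 1 than in non-diabetic infarcts, where 11.1% of all genes were higher, and 4 of 7 in type 2, where 3.85% were. At day 28 it was 5 of 8 in type 2, where 7.21% of all genes were higher. The count for type 1 at day 28 is not given here. Fcgr1 encodes the high-affinity IgG receptor of myeloid cells. Its day 7 levels were 65.4 to 98.9 CPM in type 1, 67.2 to 99.7 CPM in type 2 and 27.6 to 58.2 CPM in non-diabetic infarcts. Neither diabetic group overlapped with the non-diabetic one, and the log2 fold changes were 0.85 (SE 0.121, edgeR adjusted p = 0.000133) and 0.78 (SE 0.121, adjusted p = 0.000272). At day 28 the median of Fcgr1 was 16.1 CPM in type 1, 22.7 CPM in type 2 and 15.7 CPM in non-diabetic infarcts. The type 1 effect on Fcgr1 differed between the days by −0.80 (edgeR adjusted p = 0.00967). Fcgrt, on the same list, had lower medians in type 1 (99.4 CPM) and type 2 (104 CPM) than in non-diabetic infarcts (124.5 CPM) at day 7. Its groups overlapped. Fcgr2b, the inhibitory IgG receptor, was higher in type 1 at day 7 (0.74, SE 0.115, adjusted p = 0.000196). Fcgr4 was higher in type 2 at day 7 (1.07, SE 0.110, adjusted p = 1.71e-06) and at day 28 (1.45, SE 0.195, adjusted p = 6.6e-06). Tnfsf13b, which encodes the B cell survival factor BAFF, was higher in type 2 than in non-diabetic infarcts at day 28 (0.50, SE 0.132, adjusted p = 0.0128). Cxcl12, which retains plasma cells and other leukocytes, was lower (−0.28, SE 0.0844, adjusted p = 0.028). Of the T cell list, 9 of 9 genes rose in type 2 at day 28 and 7 of 9 at day 7. Without the 2 libraries that stand apart these counts were 3 and 8, and that of the receptor list in type 2 at day 28 was 2 of 8 genes, against 5 of 8 with them.

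Ighmbp2, the helicase gene that the name rule also takes, behaved unlike the immunoglobulin genes. It spanned 6.49 to 9.47 CPM in type 1, 7.03 to 9.38 CPM in type 2 and 7.81 to 12.1 CPM in non-diabetic infarcts of day 7, and 5.98 to 8.38 CPM in type 1, 5.70 to 9.54 CPM in type 2 and 5.67 to 7.85 CPM in non-diabetic infarcts of day 28. It was lower at day 28 than at day 7 in non-diabetic infarcts (−0.38, SE 0.0912, edgeR adjusted p = 0.00026).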

How the data were processed

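RNA-seq read counts per gene in 55 libraries were used as the authors deposited them, as raw counts in a table per day. The submitters' processing notes name mm39 as build and list DESeq2. Aligner, counter and strand setting were not given in the sources used here. The labels' protocols name PureLink columns for RNA and a TruSeq stranded mRNA kit for the libraries. Of 57260 gene IDs, 51948 had a symbol in GENCODE M21 (GRCm38), which was used for names and sequences and not for coordinates. The tables held 56941 genes at day 7 and 57186 at day 28, 56867 of them in both. Total counts per library over the genes in both tables were 31321795 to 51155406 (type 1), 30811926 to 48185189 (type 2) and 10755703 to 46809556 (non-diabetic) at day 7. At day 28 they were 57434057 to 89544341 (type 1), 48100965 to 92859399 (type 2) and 57973363 to 84369921 (non-diabetic). Of counts from 1 to 49, 76.4% at day 7 and 75.2% at day 28 were even.

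Levels are CPM with TMM factors over all libraries. Tests used edgeR 4.0.16 (quasi-likelihood F test, TMM, filterByExpr with a minimum count of 10 and total of 15) in R 4.3.3, with Benjamini-Hochberg adjustment over all genes tested and a call at an adjusted p at or under 0.05. Each day was fitted with its 3 groups, and all 6 groups were used for the comparison of days and for differences of effects. The alternatives comprised DESeq2 1.42.0, limma-voom (limma 3.58.1) with weights for library quality, a replicate block, RLE scaling, leaving out the low-count filter, fitting only 2 groups, libraries summed by the first number of the library name, the fit without 2 libraries that stand apart, and each library left out in turn. Within a day, the fit without the 2 libraries left out only that day's library. For comparisons of that library's group it is 1 of the fits that left out a library. The edgeR fit within a day was tested on simulated data with the same fixed spread for all genes. That spread was not set from the immunoglobulin genes, so the simulation does not cover theirs. The other fits were not simulated. Named genes were the constant genes, the 4 heavy and 4 light V genes with the most counts, in each comparison the 3 called V genes with the largest change, the leading V genes of libraries that stand apart, and a fixed set of companion genes with the called genes of each list. Other V genes named, such as Ighv12-3 and Igkv4-91, were chosen after their values were seen. The members, lists and tests were chosen with earlier results of these data known. Of the named genes, 1 is not reported here.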

Additional observations from a re-analysis of the deposited data

Results flagged for a closer look

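A library far from the others of its group was found in 25 of 120 sets of a gene and a group, over 5 groups. The non-diabetic libraries of day 28 were not checked. The limit used flags about 1 in 20 independent sets of normal values. Many flags fall in the same libraries, so the sets are not independent and 25 cannot be set against that rate. Values are log2 CPM. Day 7 type 1 replicate 4 stood apart with 11.61 for Ighm, 3.50 for Ighg3, 8.23 for Ighg2b, 6.46 for Ighg2c, 10.81 for Igkc, 3.28 for Iglc1, 3.70 for Iglc2 and 1.44 for Mzb1. Day 28 type 2 replicate 4 did so with 7.77 for Ighd, 4.90 for Iglc3, 7.20 for Cd79a, 6.50 for Ms4a1, 2.77 for Mzb1 and −0.80 for Pigr. Day 7 non-diabetic replicate 4 had 8.65 for Ighm, 4.09 for Ighd, 3.30 for Iglc1 and 3.12 for Cd79a. Day 28 type 1 replicate 10 had 6.06 for Ighg2c, 3.10 for Iglc3 and 4.53 for Cd79a, and replicate 1 was low with −3.85 for Ighg2b and 1.08 for Igha. Pigr, near 0 counts in most libraries, stood at −3.72 in day 7 type 2 replicate 6 and −3.46 in day 7 non-diabetic replicate 2.

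The type 1 effect differed between days, as day 28 minus day 7 on the log2 scale by edgeR's test of the difference, by −11.98 for Igkv4-57, −9.70 for Ighv1-75, −14.09 for Ighv1-66, −4.89 for Ighg2b, −3.31 for Mzb1, −0.80 for Fcgr1 and 0.40 for Fcgrt. The value of Ighv1-66 is a fitted one, with every non-diabetic library of day 7 at 0, and is no bound. The type 2 effect differed by 3.87 for Ighg2c.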

How the results depend on the processing

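Calls among the immunoglobulin genes depended on the method, and the cause was not tested. For type 1 against non-diabetic at day 7 (2 calls) there were 13 with no low-count filter, 1 with libraries summed by name, 1 without the 2 libraries that stand apart, and 0 with limma-voom, with only the groups compared or with the replicate block. For type 2 against non-diabetic at day 7 (0 calls) DESeq2, only the groups compared and the fit without those libraries gave 1 each. For type 1 against type 2 at day 7 (1 call) there were 6 with no filter and 0 with DESeq2, limma-voom, only the groups compared, the replicate block, summed libraries or without the 2 libraries. At day 28, type 1 against non-diabetic (4 calls) gave 9 with DESeq2, 2 with limma-voom, 0 with the replicate block or summed libraries and 10 without the 2 libraries. Type 2 against non-diabetic (7 calls) gave 13 with no filter, 4 with only the groups compared, 2 without the 2 libraries, 1 with summed libraries and 0 with limma-voom or the replicate block. Type 1 against type 2 (16 calls) gave 7 with only the groups compared, 2 with summed libraries, 2 without the 2 libraries, 1 with the replicate block and 0 with limma-voom. The comparison of days (75 calls) gave 37 with limma-voom, 33 without its 2 highest day 28 libraries and 80 with the replicate block. The type 1 effect difference (22 calls) gave 13 with DESeq2, 4 with the replicate block, 3 with summed libraries, 3 without the 2 libraries and 0 with limma-voom. The type 2 effect difference (1 call) gave 0 with no filter, limma-voom, the replicate block or summed libraries. Of same-numbered pairs of libraries, 19 of 54 had a correlation over 0.1, with a range of −0.42 to 0.37. Pairs with different numbers were not compared, so a pairing by replicate number cannot be told from these values.

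Leaving out 1 library at a time gave 1 to 6, 0 to 0 and 0 to 2 calls at day 7 (type 1 and type 2 against non-diabetic, type 1 against type 2), 1 to 7, 2 to 14 and 2 to 29 at day 28, and 54 to 93 between days. Among changes called in either fit, log2 fold changes turned sign for Ighg2b in type 1 against non-diabetic at day 7 (DESeq2 −0.72, limma-voom −0.51, without the 2 libraries −1.96, range with 1 left out −1.96 to 5.60), Ighg2c (DESeq2 −0.93, without the 2 libraries −1.68) and Igkv12-89 (DESeq2 −1.82, limma-voom −0.41, without the 2 libraries −1.45, range −1.45 to 5.82). They also did for Ighg2b in type 1 against type 2 at day 7 (−0.49 without the 2 libraries, range −0.49 to 7.31) and Igkv16-104 in type 2 against non-diabetic at day 28 (−0.13, range −0.13 to 5.32). In the type 1 effect difference Ighg2b had 1.47 without the 2 libraries and Ighv1-75 had 0.54 with DESeq2. Changes of constant genes that were not called turned as well without the 2 libraries, as in type 1 against non-diabetic at day 7 for Ighm (2.35, then −1.10), Iglc2 (1.51, then −0.60) and Ighd (1.22, then −0.15) and in type 2 against non-diabetic at day 28 for Ighm (1.18, then −0.30), Igkc (1.11, then −0.26) and Ighd (1.76, then −0.55). Over the values of single genes in the alternative fits, 1478 kept their direction and side of the threshold. In 171 the direction held but the call was lost, and in 33 a call was gained. In 192 the direction turned with no call in either fit, and in 16 it turned with a call in either fit. At day 7, 23 of 144 genes passed the filter.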
